A study of Mus musculus with 2 samples.

Results

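Conventional CD4 T cells were picked out by their transcripts among the CD45+ cells of brain tumours seeded with CT-2A, a glioma cell line of the mouse. A cell was kept when at least 300 genes were detected and under 10% of its UMIs (unique molecular identifiers, one per captured transcript) were mitochondrial. It was then taken as a conventional CD4 T cell when it held at least 2 UMIs of Cd3e, Cd3d and Cd3g together, at least 1 of Cd4 and Cd40lg together, none of Cd8a, Cd8b1, Foxp3 or Trdc, and under 100 UMIs per 10000 of C1qa, C1qb, C1qc, Lyz2 and Apoe together. This gave 267 of 23585 kept cells, 181 of 12112 from Glut5 KO mice and 86 of 11473 from wildtype mice. The levels of the genes named in these limits therefore describe the choice and are not a finding.

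Glut5, encoded by Slc2a5, is a fructose transporter. CT-2A cells were placed inside the skull of Glut5 KO and of wildtype mice, tumours were taken at day 14, dissociated, and enriched for CD45+ cells with magnetic beads. Each genotype gave 1 droplet library made with a 10x 5' kit, so no difference between genotypes has a replicate check, no test was made, and genotype and library cannot be told apart. The sample labels say KO where the design text speaks of knockdown; the labels are followed. The sources used here do not give the deleted sequence, the age, the breeding or the number of the animals. The titles name a single mouse, yet Y-linked UMIs without Xist were found in 76 conventional CD4 T cells of the Glut5 KO library and 32 of the wildtype library, and Xist without Y-linked UMIs in 38 and 12 cells. Over all barcodes, Slc2a5 had 1 UMI in the Glut5 KO library against 384 in the wildtype library, which matches the labels, and within conventional CD4 T cells it had 0 and 1 UMI.

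CD4 T cells recognise peptides on MHC class II molecules and act mainly by helping other cells. CD40 ligand and the TNF-family members license antigen-presenting cells, and secreted cytokines such as interferon-gamma, GM-CSF and IL-17 instruct macrophages, neutrophils and B cells. After activation they take on type 1, type 2, type 17 or follicular programmes, while Foxp3 marks the regulatory branch that restrains the others.

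The kept cells of the libraries held 96803335 UMIs (Glut5 KO) and 116089616 UMIs (wildtype). Conventional CD4 T cells held 1693150 UMIs with a median of 6852 per cell in the Glut5 KO library, and 867390 with a median of 8935 in the wildtype library. The libraries shared 188 barcode sequences. Levels below are CPM, UMIs of a gene per 1000000 UMIs summed over the named cells of 1 library, and ratios are on the log2 scale with 0.5 added to each count. The 95% intervals in brackets are exact and speak for the counting of UMIs or cells alone, not for animals or libraries.

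The label was checked with Icos, a costimulatory receptor of activated CD4 T cells that the choice did not use. Icos stood at 477 CPM in Glut5 KO and 334 CPM in wildtype conventional CD4 T cells, with a UMI in 160 of 181 and 71 of 86 cells. CD8 T cells, which were gated T cells with a Cd8 UMI and none of Cd4, Cd40lg or Foxp3, had 187 CPM in the Glut5 KO and 173 CPM in the wildtype library. Icos was near 0 in phagocyte-gated cells, at 3.17 CPM (Glut5 KO) and 0.802 CPM (wildtype). The highest level was in Foxp3 T cells, at 683 CPM (Glut5 KO) and 599 CPM (wildtype). Icos thus marks these cells off from phagocytes, but not from Foxp3 T cells. Against CD8 T cells its level was higher, yet 134 of 215 Glut5 KO and 83 of 134 wildtype CD8 T cells also had a UMI. Icos alone therefore does not set the chosen cells apart from CD8 T cells.

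The chosen genes were split over the cells. Cd4, the coreceptor, had a UMI in 144 of 181 Glut5 KO and 64 of 86 wildtype cells, and Cd40lg, the ligand of CD40, in 112 and 55. Both were found in 75 and 33 cells, and 37 and 22 cells were held by Cd40lg alone. Near the limits, 12 Glut5 KO and 2 wildtype cells had exactly 2 Cd3 UMIs and were taken, and 12 and 2 further cells that met the other limits had 1 and were not. The phagocyte limit took 20 and 16 cells with 50 to 100 UMIs per 10000, of which 90.0% and 81.3% had an Icos UMI. It turned away 71 and 81 cells above 100, of which 76.1% and 75.3% had one.

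Transcripts of other cell types were present in the chosen cells. MHC class II genes at 100 UMIs per 10000 or more, or a UMI of the B cell genes Cd79a, Cd79b or Ms4a1, were found in 55 of 181 Glut5 KO cells (30.4%) and 36 of 86 wildtype cells (41.9%). These cells, called mixed below, had median depths of 13444 and 14126 UMIs, against 4633 and 4289 in the others. Over all conventional CD4 T cells, 13 of 14 phagocyte markers were detected in Glut5 KO, with a summed level of 7083 CPM, and 14 of 14 in wildtype, with 9760 CPM. The sum over 10 B and plasma cell markers was 2855 CPM in Glut5 KO and 247 CPM in wildtype. Without mixed cells these sums were 1961 and 3118 CPM for phagocytes and 85.1 and 43.7 CPM for B and plasma cells, with Cd79a, Cd79b, Ms4a1 and Pax5 at 0 in both libraries, the Cd79 genes and Ms4a1 by construction. The 14 dendritic cell and neutrophil markers summed to 17752 CPM in Glut5 KO and 23819 CPM in wildtype, and to 670 and 1055 CPM without mixed cells. The 10 tumour and stroma markers summed to 96.3 and 16.1 CPM, and to 128 and 28.1 CPM without mixed cells. The list counts between genotypes and the leading genes are therefore also given without mixed cells, a choice made after the data were seen.

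Genes of the regulatory branch were present although Foxp3 had no UMI. Ikzf2 or Il2ra, which encode Helios and the IL-2 receptor alpha chain and are high in regulatory T cells, had a UMI in 94 of 181 Glut5 KO cells (51.9%) and 42 of 86 wildtype cells (48.8%). Their levels were far below those of Foxp3 T cells, gated T cells with a Foxp3 UMI and no Cd8 UMI. Ikzf2 stood at 88.0 CPM (Glut5 KO) and 48.4 CPM (wildtype) in conventional CD4 T cells, against 516 and 454 CPM in Foxp3 T cells. UMIs of the gamma chain constant genes Tcrg-C1, Tcrg-C2 or Tcrg-C4 were found in 21 of 181 and 10 of 86 conventional cells.

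**Figure D1:**
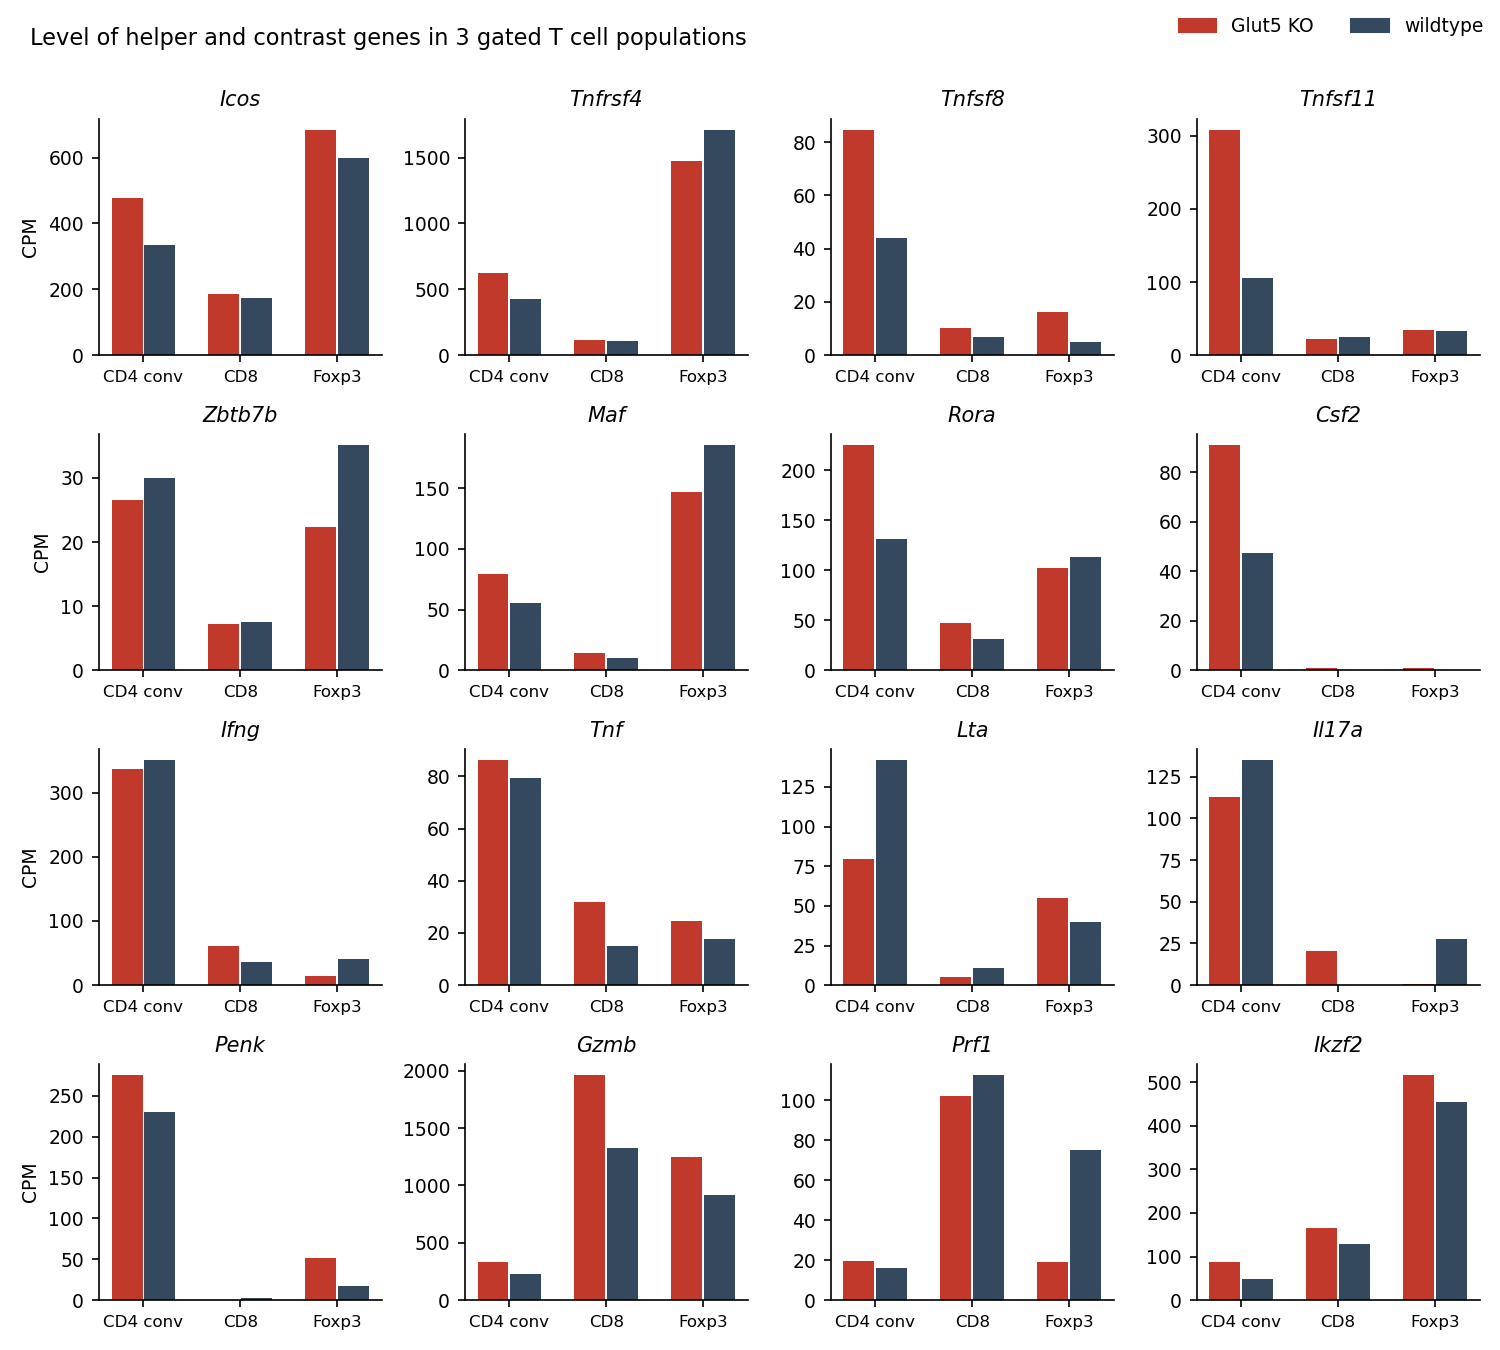
Level in CPM of 16 genes in conventional CD4, CD8 and Foxp3 T cells, with a red bar for the Glut5 KO library and a dark blue bar for the wildtype library, 1 library each and hence no error bars. Csf2, Ifng, Penk and Tnfsf11 are highest in conventional CD4 T cells of both libraries, Gzmb in CD8 T cells, and Ikzf2 and Tnfrsf4 in Foxp3 T cells.

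Conventional CD4 T cells were set against CD8 T cells of the same library, 215 cells in Glut5 KO and 134 in wildtype. They stood out by secreted cytokines, ligands and receptors of the TNF family and regulators of the helper lineage. Genes of the killing machinery were lower, while T cell receptor signalling and naive genes were close. A gene is counted as higher or lower when it differed at least 2-fold in the same direction in both libraries, among genes with at least 50 UMIs. Of 8692 genes, 103 were higher (1.18%) and 63 lower (0.725%), with a median log2 ratio over all of them of 0.03 in both libraries.

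Helper cytokines were higher in 4 of 6 counted members, with none lower, against 1.18% of all genes. The list had a median log2 ratio of 1.95 in Glut5 KO and 2.82 in wildtype. Csf2 encodes GM-CSF, which acts on macrophages and neutrophils. It stood at 91.0 CPM (Glut5 KO) and 47.3 CPM (wildtype) in conventional CD4 T cells, against 0.901 and 0 CPM in CD8 T cells. The log2 ratio was 6.34 [4.78, 9.71] in Glut5 KO, and in wildtype, where CD8 T cells had no UMI, the level was at least 22.8-fold higher by a floor of 3 counts over the CD8 T cells. Ifng, which encodes interferon-gamma, was at 337 CPM (Glut5 KO) and 350 CPM (wildtype) in conventional CD4 T cells, against 60.4 and 35.9 CPM in CD8 T cells. These are log2 ratios of 2.48 [2.21, 2.76] and 3.28 [2.86, 3.74], so the CD4 cells carried more interferon-gamma transcript per UMI than the CD8 cells in both libraries. Lta and Tnf, the remaining counted cytokines that were higher, encode lymphotoxin alpha and TNF. Lta was at 79.7 and 142 CPM against 5.41 and 11.0 CPM, and Tnf at 86.2 and 79.5 CPM against 32 and 15.2 CPM. Ltb and Tgfb1 completed the list, with Ltb at log2 0.18 and 0.25.

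The sequences upstream of 3 of these cytokine genes are shown because Csf2, Ifng and Il17a are the signature cytokines of the lists that stood out and were called higher. Each is the 250 bases before the gene start, from RefSeq on GRCm38.p6, 5' to 3' on the strand of the gene. Capitals mark GGAAA or its reverse complement TTTCC, the core letters bound by NFAT factors, which drive cytokine genes after T cell receptor stimulation. Csf2 (ENSMUSG00000018916) runs from chr11:54247270-54249899 on the minus strand, and its upstream window is chr11:54249900-54250149. Ifng (ENSMUSG00000055170) lies on the plus strand at chr10:118441046-118445894, with the window chr10:118440796-118441045. Il17a (ENSMUSG00000025929) lies on the plus strand at chr1:20730905-20734496, with the window chr1:20730655-20730904.
Csf2: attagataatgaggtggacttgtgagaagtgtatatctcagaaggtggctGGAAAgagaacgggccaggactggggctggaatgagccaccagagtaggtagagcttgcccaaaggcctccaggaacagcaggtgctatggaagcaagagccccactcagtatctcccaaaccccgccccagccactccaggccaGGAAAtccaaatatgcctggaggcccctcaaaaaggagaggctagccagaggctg
Ifng: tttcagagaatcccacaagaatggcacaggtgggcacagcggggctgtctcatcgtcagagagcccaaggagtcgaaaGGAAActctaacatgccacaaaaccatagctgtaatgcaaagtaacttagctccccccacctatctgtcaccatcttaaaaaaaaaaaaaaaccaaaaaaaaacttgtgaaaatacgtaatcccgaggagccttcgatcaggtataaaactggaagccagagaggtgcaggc
Il17a: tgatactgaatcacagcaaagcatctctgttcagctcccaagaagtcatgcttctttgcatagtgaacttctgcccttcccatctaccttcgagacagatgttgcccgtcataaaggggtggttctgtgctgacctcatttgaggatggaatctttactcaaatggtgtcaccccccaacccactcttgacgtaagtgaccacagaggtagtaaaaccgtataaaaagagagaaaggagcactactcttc
The core letters were found at 2 places in the Csf2 window, at 1 in the Ifng window and at 0 in the Il17a window. They are common: 15020 of 27025 promoters (55.6%), read over windows of the same length, held them on either strand. The letters are a description of these windows and do not show binding.

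Of the costimulation and TNF family list, 4 of 14 counted members were higher and 1 was lower, against 1.18% and 0.725% of all genes. Tnfsf11, which encodes RANK ligand, was at 308 CPM (Glut5 KO) and 105 CPM (wildtype) in conventional CD4 T cells, against 22.5 and 24.9 CPM in CD8 T cells. Its log2 ratios were 3.76 [3.35, 4.22] and 2.07 [1.51, 2.68]. Tnfsf8, the CD30 ligand, was at 84.5 and 43.8 CPM against 10.4 and 6.90 CPM, with log2 ratios of 3 [2.38, 3.73] and 2.61 [1.63, 3.84]. Tnfrsf4 encodes OX40, a costimulatory receptor kept up on activated CD4 T cells. It was at 624 and 430 CPM against 117 and 105 CPM in CD8 T cells. Slamf1, the self-ligand receptor SLAM, was at 53.8 and 55.3 CPM against 12.6 and 17.3 CPM. The member that was lower was Cd27, a receptor of naive and memory T cells, at 47.8 and 49.6 CPM against 118 and 118 CPM. Cd28 and Icos missed the limit, Icos with log2 ratios of 1.35 and 0.95.

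Among regulators, Zbtb7b, which encodes ThPOK and fixes the CD4 lineage in the thymus, was the member of the 9 counted lineage factors that passed. It was at 26.6 CPM (Glut5 KO) and 29.97 CPM (wildtype) against 7.21 and 7.59 CPM in CD8 T cells, with log2 ratios of 1.85 [1.03, 2.80] and 1.94 [0.91, 3.15]. Phagocyte-gated cells had 19.0 and 17.5 CPM of it. The type 17 list had 4 of 7 members higher, against 1.18% of all genes: Il17a, Rora, Maf and Ccr6. Rora, a nuclear receptor of the type 17 programme, was at 225 and 131 CPM against 46.9 and 31.1 CPM. Maf, a factor shared by type 17, follicular and regulatory cells, was at 79.7 and 55.3 CPM against 14.0 and 9.66 CPM. Foxp3 T cells had more Maf, at 147 CPM (Glut5 KO) and 186 CPM (wildtype). Il17a was at 113 and 135 CPM against 20.7 CPM in Glut5 KO and 0 in wildtype CD8 T cells. In wildtype this is at least 65.1-fold higher by the floor of 3 counts, but 111 of the 117 wildtype UMIs came from 3 cells with gamma chain constant UMIs and none of Trac or Cd4. Without mixed cells, 7 of 7 type 17 members were higher, against 1.91% of all genes. Type 1 genes were mostly shared with CD8 T cells: 2 of 13 were higher, Ifng and Tnf, and Tbx21, Cxcr3 and Il12rb2 were not.

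Chemokine receptors added to the contrast, with 2 of 16 homing genes higher. Ccr8, a receptor of skin-homing and regulatory cells, was at 228 CPM (Glut5 KO) and 113 CPM (wildtype) against 17.1 and 25.5 CPM in CD8 T cells. Ccr4 was at 27.8 and 19.6 CPM against 2.25 and 0.690 CPM. Of the T cell receptor list, 1 of 13 was higher, Cd5, which dampens receptor signals, at 472 and 236 CPM against 155 and 112 CPM. The regulatory list had 5 of 16 members higher: Tnfrsf4, Ccr8, Izumo1r, Ebi3 and Socs2. Follicular genes had 2 of 8 higher, Tox2, at 26.6 and 4.61 CPM against 2.70 and 0.690 CPM, and Il6ra. Of 16 naive and memory and 15 activation genes, none passed in either direction, where 1.18% and 0.725% of all genes did.

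The largest ratio outside the lists belonged to Penk, which encodes the opioid peptide precursor proenkephalin. It had 466 UMIs in 24 Glut5 KO cells and 200 UMIs in 4 wildtype cells, or 275 and 231 CPM. Of these, 160 Glut5 KO and 162 wildtype UMIs came from 1 cell in each library. CD8 T cells had 0.451 and 2.76 CPM, log2 ratios of 8.67 [6.77, 14.56] and 6.22 [5.005, 8.27], and Foxp3 T cells 51.3 and 17.6 CPM. Without cells holding Ikzf2 or Il2ra, the wildtype ratio of Penk over CD8 T cells was −1.26. Ccn4, a secreted matrix-associated protein, was at 91.0 and 19.6 CPM against 4.96 and 0.690 CPM, from 61 and 8 cells. Ccl1, the ligand of CCR8, was at 105 and 722 CPM against 0.901 and 67.7 CPM, but 542 of the 626 wildtype UMIs came from 1 cell. Lgals7, Tff1 and Serpinb1a completed the 12 highest, with Maf, Ifng, Lta, Csf2, Il17a and Tnfsf8.

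The cytotoxic and CD8 effector list was lower in 5 of 20 counted members and higher in none, where 0.725% of all genes were lower. Its median log2 ratio was −1.09 in Glut5 KO and −0.84 in wildtype. Gzmb (ENSMUSG00000015437, chr14:56258836-56262334), which encodes granzyme B, stood at 336 CPM (Glut5 KO) and 229 CPM (wildtype) in conventional CD4 T cells, against 1960 and 1329 CPM in CD8 T cells. The log2 ratios were −2.54 [−2.67, −2.42] and −2.53 [−2.75, −2.32], nearly the same in each library. Prf1, the pore-forming perforin, was at 19.5 and 16.1 CPM against 102 and 112 CPM. Gzmk, granzyme K, was at 33.1 and 14.99 CPM against 125 and 134 CPM. Nkg7, a granule protein, was at 826 and 678 CPM against 1792 and 1507 CPM, so it remained well above the 14.7 and 12.01 CPM of phagocyte-gated cells. The fifth was Crtam, with few UMIs. Outside the list, Bend4, Apod, Setbp1, Hist1h2ae, Osgin1, Mctp2, Cenpe and Ncald were among the 12 lowest.

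**Figure D2:**
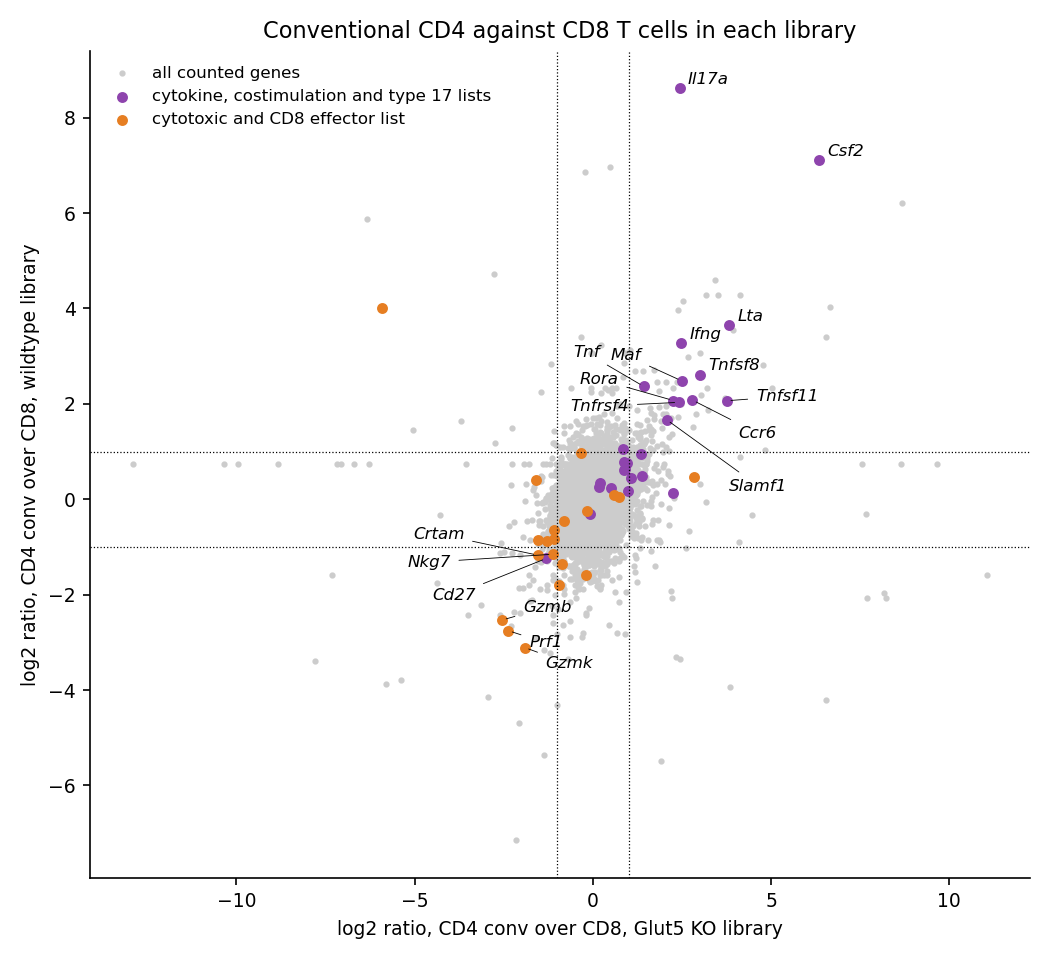
Each point is a gene with at least 50 UMIs, with the log2 ratio of conventional CD4 over CD8 T cells in the Glut5 KO library on the horizontal and in the wildtype library on the vertical axis. Dotted lines mark a 2-fold difference; cytokine, costimulation and type 17 genes (purple) reach the upper right, led by Csf2 and Il17a, and Gzmb, Prf1 and Gzmk (orange) the lower left, while the orange point at the upper left is Gzmf.

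Conventional CD4 T cells were also set against Foxp3 T cells of the same library, 107 cells in Glut5 KO and 36 in wildtype. Some cytokines and type 1 genes were higher in conventional cells, and 9 of 19 genes of the regulatory list were lower. Of 7742 genes with at least 50 UMIs, 97 were at least 2-fold higher in both libraries (1.25%) and 63 lower (0.814%), with medians over all genes of 0.03 in Glut5 KO and −0.0020 in wildtype. The regulatory list had 9 of 19 counted members lower and none higher, with medians of −0.95 in Glut5 KO and −1.27 in wildtype. Foxp3 itself was part of the choice of both groups.

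Lrrc32, which encodes GARP, the surface anchor of latent TGF-beta, was at 8.27 CPM (Glut5 KO) and 3.46 CPM (wildtype) in conventional CD4 T cells, against 95.9 and 72.7 CPM in Foxp3 T cells. The log2 ratios were −3.49 [−4.45, −2.74] and −4.20 [−6.75, −2.71]. Il2ra was at 98.6 and 72.6 CPM against 354 and 441 CPM, and Klrg1, a receptor of terminally differentiated cells, at 1.77 and 3.46 CPM against 55.8 and 40.1 CPM. Tnfrsf4, higher in conventional CD4 than in CD8 T cells, was here lower, at 624 and 430 CPM against 1476 and 1708 CPM. Tnfrsf9, the 4-1BB receptor, was at 141 and 290 CPM against 445 and 930 CPM. Izumo1r, the folate receptor family member FR4, was at 99.8 and 54.2 CPM against 370 and 271 CPM. Conventional CD4 T cells thus lay between CD8 and Foxp3 T cells for Tnfrsf4 and Izumo1r. Frmd5, Rln3, Iigp1, Arl5a, Sv2c, Bmyc and Gzmb were also among the 12 lowest.

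Type 1 genes were higher in 5 of 12 counted members and lower in none, against 1.25% of all genes. Ifng was at 337 CPM (Glut5 KO) and 350 CPM (wildtype) against 14.9 and 40.1 CPM in Foxp3 T cells, with log2 ratios of 4.47 [3.86, 5.22] and 3.08 [2.40, 3.95]. Il12rb2, the signalling chain of the IL-12 receptor, was at 137 and 116 CPM against 48.3 and 25.1 CPM. Il18rap, a chain of the IL-18 receptor, was at 50.8 and 48.4 CPM against 7.43 and 7.52 CPM. Cxcr6, which directs cells to tissues with its ligand CXCL16, was at 343 and 273 CPM against 87.0 and 135 CPM. Csf2 was at 0.743 CPM in Glut5 KO and at 0 in wildtype Foxp3 T cells. Of 7 counted cytokines, 3 were higher, Csf2, Ifng and Tnf, and 1 was lower, Il10, with list medians of 0.53 in Glut5 KO and 1.78 in wildtype.

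Naive and memory genes were higher in 4 of 16 members and lower in none, against 1.25% and 0.814% of all genes. Tcf7, the factor TCF-1 of naive and stem-like memory cells, was at 70.9 CPM (Glut5 KO) and 88.8 CPM (wildtype) against 15.6 and 20.1 CPM in Foxp3 T cells. Themis, which tunes T cell receptor signals, was at 161 and 126 CPM against 22.3 and 20.1 CPM. The cytotoxic list had 6 of 18 members higher and 1, Gzmb, lower, against the same shares of all genes. Klrc1, an NK-type receptor chain, was at 122 and 142 CPM against 20.1 and 12.5 CPM. Gzma was at 181 and 379 CPM against 28.2 and 2.51 CPM. Beyond the list, Nrgn, which encodes the calmodulin-binding protein neurogranin, was at 159 and 72.6 CPM against 8.92 and 5.02 CPM. Csf2, Ccl1, Penk, Tnfsf8 and Il17a completed the 12 highest. The costimulation list was split, with Tnfsf8 and Tnfsf11 higher and 3 of 14 members lower, again against 1.25% and 0.814% of all genes. No T cell receptor gene passed in either direction.

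Few cells held most of the cytokine transcripts. Ifng had 570 UMIs in 58 of 181 Glut5 KO cells and 304 UMIs in 18 of 86 wildtype cells. The top 3 cells held 41.6% of them in Glut5 KO and 80.3% in wildtype, with up to 101 and 98 UMIs in a cell. Csf2 had 154 UMIs in 17 Glut5 KO cells and 41 UMIs in 8 wildtype cells, with 57.1% and 87.8% in the top 3. The levels of these genes in CPM, above all in wildtype, therefore describe a handful of cells.

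Il17a was more restricted still, with 191 UMIs in 7 Glut5 KO cells and 117 UMIs in 6 wildtype cells. Of the 7 Glut5 KO cells, 7 had a Trac UMI, 6 a Cd4 UMI and 1 a Tcrg-C UMI. Of the 6 wildtype cells, 3 had Trac, 1 had Cd4 and 3 had Tcrg-C. The 3 with Tcrg-C had no Trac or Cd4 UMI and held 94.9% of the wildtype UMIs. Trac encodes the alpha chain constant region of alpha-beta T cells, and Tcrg-C the gamma chain constant regions of gamma-delta T cells. The markers of these 3 cells go against the CD4 name, and they entered the choice through Cd40lg. With a Cd4 UMI required, the log2 ratio over Foxp3 T cells in wildtype was −3.76.

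Cytokines of other helper types were scarce. Il21, the follicular cytokine, had 32 UMIs in 20 Glut5 KO cells and 3 UMIs in 2 wildtype cells. CD8 T cells had no Il21 UMI in either library, so the Glut5 KO level was at least 14.0-fold higher by the floor of 3 counts. Il2, the T cell growth factor, had 24 UMIs in 10 Glut5 KO cells and 1 UMI in 1 wildtype cell. Il10 had 14 UMIs in 6 Glut5 KO cells and none in wildtype. The type 2 cytokines Il4 and Il13 had 4 and 6 UMIs in Glut5 KO cells and 0 and 2 in wildtype cells, and Il5 and Il3 had none in either library.

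**Figure D3:**
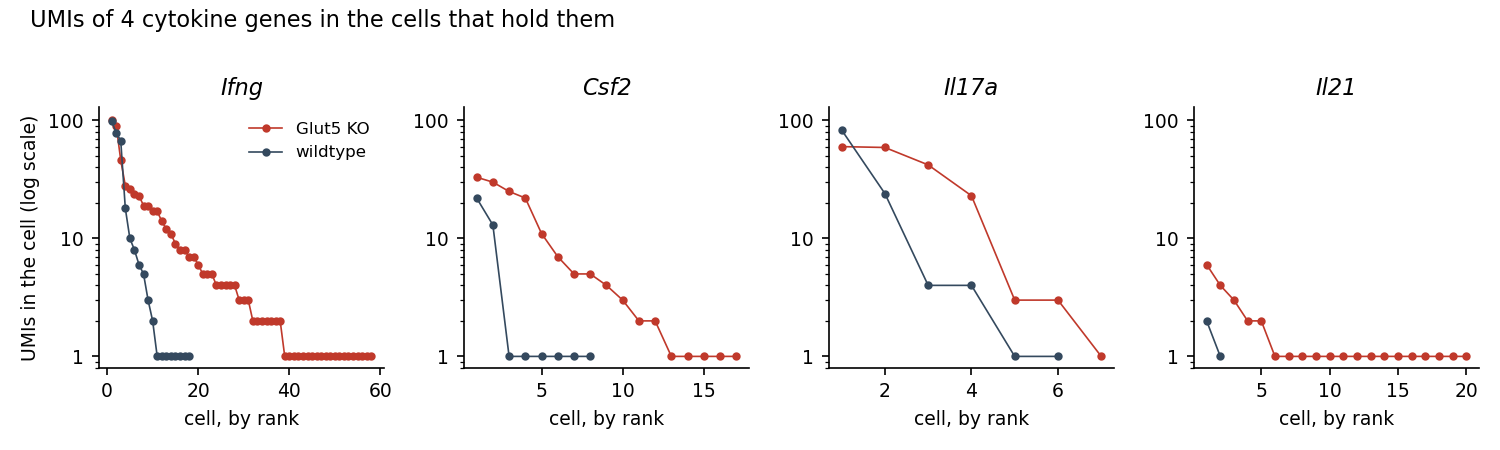
UMIs of Ifng, Csf2, Il17a and Il21 in each conventional CD4 T cell that held them, ranked from the highest, on a log scale, with Glut5 KO in red and wildtype in dark blue. The highest Ifng cells reach 101 and 98 UMIs, and the Glut5 KO curves run over more cells, 58 against 18 for Ifng and 20 against 2 for Il21, from 181 and 86 cells.

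States were read from marker UMIs, and a cell could hold several. To compare depths, each cell was thinned to 1000 UMIs, which left out 5 of 181 Glut5 KO and 0 of 86 wildtype cells. A type 1 marker (Tbx21, Ifng or Cxcr3) was found in 33.5% [26.6, 41.0] of thinned Glut5 KO cells and 26.7% [17.8, 37.4] of thinned wildtype cells, or 75.7% and 69.8% without thinning. The intervals of the type 1 shares overlap between the libraries. Follicular markers (Cxcr5 or Il21) were found in 2.27% and 0% after thinning, and in 19.9% and 6.98% without it. Type 2 cytokines were found in 2.21% and 2.33% of unthinned cells. Granzyme B or perforin was found in 18.8% [13.3, 25.3] and 10.5% [4.90, 18.9] of thinned cells, and in 32.6% and 32.6% without thinning. The division genes Mki67 or Top2a were found in 14.8% [9.88, 20.9] and 6.98% [2.60, 14.6] of thinned cells, and in 35.4% and 27.9% without thinning. Both pairs of thinned intervals overlap.

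The share of conventional CD4 T cells was larger in the Glut5 KO library. They made up 1.49% [1.29, 1.73] of kept cells in Glut5 KO and 0.750% [0.600, 0.925] in wildtype, a ratio of 1.99 [1.53, 2.61]. All gated T cells were also more frequent, at 6.13% and 3.63%. Among gated T cells the conventional CD4 share was 24.4% [21.3, 27.6] in Glut5 KO and 20.7% [16.9, 24.9] in wildtype, a ratio of 1.18 [0.907, 1.54], whose interval includes no difference. CD8 T cells were 28.9% and 32.2% of gated T cells, and Foxp3 T cells 14.4% and 8.65%. Without mixed cells, the conventional CD4 share of gated T cells was 27.5% and 20.5%. CD45 bead selection and the loading of the droplets also set these shares, and their part in the difference was not tested.

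The levels of genes within conventional CD4 T cells were then set between the libraries. Most of the inhibitory receptors and exhaustion genes were higher in Glut5 KO, as were 7 of 15 genes of the regulatory list and 5 of 14 activation genes. Naive and memory genes were split, and none of 12 type 1 genes passed in either direction. At the 1.5-fold limit, 520 of 6193 genes with at least 50 UMIs were higher in Glut5 KO (8.40%) and 391 lower (6.31%), with a median log2 ratio of −0.00485 over all of them. Without mixed cells, 184 of the 520 and 55 of the 391 were called again, of 243 and 96 that still had 50 UMIs. In all, 12.5% of the 3604 genes counted without mixed cells were higher and 6.16% lower. Values given for a gene without mixed cells come from 126 Glut5 KO and 50 wildtype cells.

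The list of inhibitory receptors and exhaustion genes had 8 of 10 counted members higher in Glut5 KO and none lower, against 8.40% of all genes. Its median log2 ratio was 0.74, and 0.79 without mixed cells, with 7 of 10 higher, against 12.5% of all genes. Lag3 encodes an inhibitory receptor for MHC class II. It stood at 149 CPM in Glut5 KO and 33.4 CPM in wildtype, a log2 ratio of 2.14 [1.60, 2.77], and 2.51 without mixed cells. Phagocyte-gated cells also had Lag3, at 87.0 and 62.9 CPM, and their part in the difference was not tested. Tox, a nuclear factor of chronically stimulated T cells, was at 149 and 38.0 CPM, a log2 ratio of 1.96 [1.45, 2.54], and 2.27 without mixed cells. Cd200, the ligand of an inhibitory myeloid receptor, was at 118 and 25.4 CPM, a log2 ratio of 2.19 [1.58, 2.93], and 2.07 without mixed cells. Ctla4, which competes with Cd28 for its ligands, was at 579 and 334 CPM, a log2 ratio of 0.79 [0.60, 0.99], or 0.86 without mixed cells, and Tigit, a receptor for nectin-family ligands, at 251 and 128 CPM. Rgs16 and Batf were also higher, at 232 and 148 CPM and at 169 and 105 CPM, and Pdcd1, described next, completed the 8.

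Pdcd1, which encodes PD-1, was less stable. It was at 354 CPM in Glut5 KO and 228 CPM in wildtype, a log2 ratio of 0.63 [0.40, 0.87]. Without mixed cells the ratio was 0.35, and in female cells alone −0.18. The members that missed the limit were Havcr2, at 80.3 and 65.7 CPM, and Entpd1, at 73.8 and 64.6 CPM. The same list had 2 of 12 members higher in Glut5 KO CD8 T cells and 3 of 10 in Foxp3 T cells, with medians of 0.36 and 0.24, against 7.19% and 8.19% of all genes higher in those cells. The difference between the populations was not tested.

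Of the costimulation list, 4 of 14 members were higher in Glut5 KO, against 8.40% of all genes, and 1 was lower, about the 6.31% of all genes. The 4 were Tnfsf11, Tnfsf8, and Ctla4 and Cd200, which the inhibitory account above already counted. Without mixed cells, 5 of 13 were higher and 1 lower. Tnfsf11 was at 308 CPM in Glut5 KO and 105 CPM in wildtype, a log2 ratio of 1.55 [1.23, 1.89], and 1.24 without mixed cells. It had 521 UMIs in 83 cells and 91 UMIs in 31 cells. After thinning, 22.2% of Glut5 KO and 8.14% of wildtype cells had a UMI of it, against 0.0464% and 0.0126% of phagocyte-gated cells. In CD8 T cells Tnfsf11 differed little, with a log2 ratio of −0.15. Icos was at 477 and 334 CPM, under the limit, with a UMI in 43.8% and 27.9% of thinned cells. Tnfrsf9 ran the other way, at 141 CPM in Glut5 KO and 290 CPM in wildtype, a log2 ratio of −1.04 [−1.30, −0.78], and −1.30 without mixed cells. It was also lower in Glut5 KO CD8 T cells, at −1.28, and in Foxp3 T cells, at −1.06. Tnfrsf9 lies close to Slc2a5 on chromosome 4, at chr4:150920155-150946104 against chr4:150119344-150144168. The part of this position in the difference was not tested.

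Few genes close to the T cell receptor passed. Cd5 was at 472 CPM in Glut5 KO and 236 CPM in wildtype, a log2 ratio of 0.997 [0.78, 1.23], or 0.79 without mixed cells, and Cd6, a related receptor, at 271 and 131 CPM. They were the 2 of 13 receptor-signalling genes that passed, against 8.40% of all genes, and none was lower. Of 14 activation genes, 5 were higher and none lower, against 8.40% and 6.31%: Egr1, Irf4, Dusp2, Nr4a2 and Cd44. Egr1, an immediate-early factor, was at 180 and 79.5 CPM, a log2 ratio of 1.17 [0.79, 1.57], and 1.61 without mixed cells. Without mixed cells, 6 of 14 activation genes were higher and 2 lower. Nr4a2, induced by receptor signals, was at 278 and 171 CPM. Fos and Jun, which also respond to tissue dissociation, did not pass, at 519 and 656 CPM for Fos and 340 and 312 CPM for Jun.

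Genes of naive and memory cells were split, with 3 of 16 higher in Glut5 KO and 3 lower, against 8.40% and 6.31% of all genes, and 3 of 14 higher and 2 lower without mixed cells. Klf3 was at 44.9 CPM in Glut5 KO and 105 CPM in wildtype, and Klf2, the factor that keeps naive cells recirculating, at 152 and 286 CPM, log2 ratios of −1.22 [−1.68, −0.77] and −0.91 [−1.17, −0.66]. Without mixed cells these were −1.01 and −1.78, and Klf2 in male cells alone had a ratio of −0.05. Ccr7, a lymph node homing receptor, was higher, at 578 and 327 CPM, a log2 ratio of 0.82 [0.63, 1.02], and 1.94 without mixed cells. Tcf7 was at 70.9 and 88.8 CPM and did not pass.

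The regulatory list had 7 of 15 counted members higher and none lower, against 8.40% and 6.31% of all genes, with a median of 0.54. Without mixed cells 6 of 14 were higher, against 12.5%. Nt5e, which encodes the adenosine-forming enzyme CD73, was at 78.5 CPM in Glut5 KO and 33.4 CPM in wildtype. Ikzf2 was at 88.0 and 48.4 CPM, Izumo1r at 99.8 and 54.2 CPM, and Ccr8 at 228 and 113 CPM. Ctla4 and Tigit are in this list and in the inhibitory one. The share of Foxp3 T cells among gated T cells was also larger in Glut5 KO, as given above, and its part in these levels was not tested.

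None of 12 counted type 1 genes was past 1.5-fold in either direction, and their median was 0.09. Without mixed cells, 1 of 12 was higher and 2 were lower. The subsets by sex were less even, with 4 of 12 higher and none lower in male cells, against 8.90% of all genes higher, and 2 of 6 higher and 1 lower in female cells, against 18.1% and 11.2%. Tbx21, which encodes the master regulator T-bet, was at 94.5 CPM in Glut5 KO and 89.9 CPM in wildtype, a log2 ratio of 0.07 [−0.33, 0.48]. Ifng was at 337 and 350 CPM, a log2 ratio of −0.06 [−0.26, 0.15]. Ifng was not steady over subsets, with −0.87 without mixed cells, 2.75 in female cells and 1.17 in male cells, and with a UMI in 15.3% and 6.98% of thinned cells. Cxcr3 was at 102 and 77.2 CPM. Bhlhe40, which supports cytokine production, was just under the limit, at 654 and 437 CPM.

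Cytokines and type 17 genes gave no common direction. Csf2 was at 91.0 CPM in Glut5 KO and 47.3 CPM in wildtype, a log2 ratio of 0.93 [0.44, 1.48], and Lta at 79.7 and 142 CPM, a log2 ratio of −0.83 [−1.19, −0.47]. Of the 123 wildtype Lta UMIs, 57 came from 1 cell, and Lta had a ratio of 0.47 in male cells alone. Csf2 and Lta were the 1 higher and 1 lower of 6 counted cytokines, and without mixed cells 1 was higher and 3 lower. Of 7 type 17 genes, Rora, at 225 and 131 CPM, and Ccr6, at 41.9 and 24.2 CPM, were higher and none was lower, against 8.40% and 6.31% of all genes. Without mixed cells 1 was higher and 2 lower. Il17a was at 113 and 135 CPM. Of the cytotoxic list, 3 of 17 were higher and 4 lower, and 3 of 14 higher and 3 lower without mixed cells, with Gzmk, Ccl3 and Cst7 higher and Gzma, Gzmc, Gzmf and Ccl5 lower. Gzmb, just under the limit, was at 336 and 229 CPM.

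**Figure D4:**
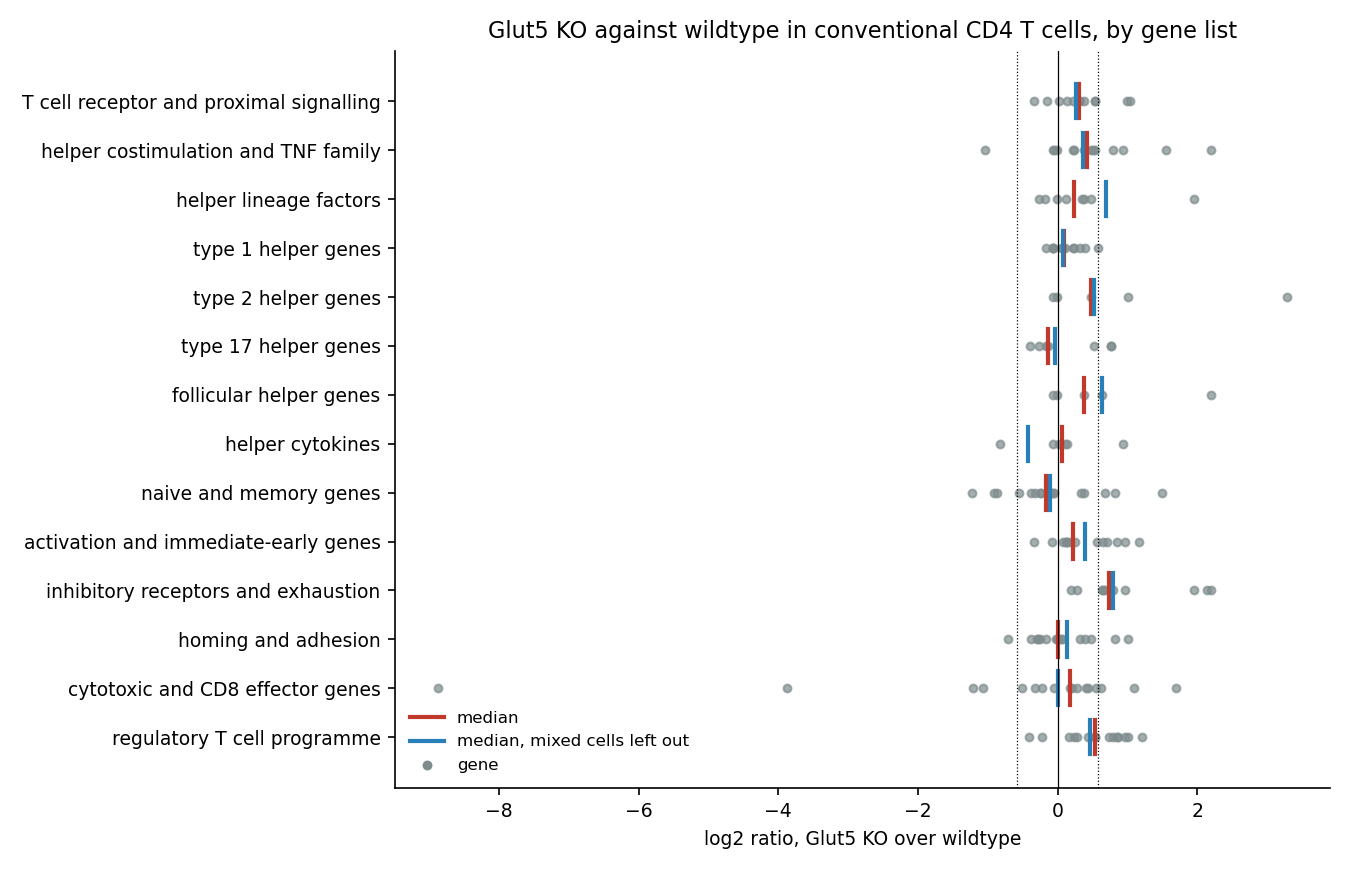
Log2 ratio of Glut5 KO over wildtype in conventional CD4 T cells for each counted gene (grey points) of 14 lists, with the median in red and the median without mixed cells in blue. Dotted lines mark 1.5-fold; the inhibitory receptors and exhaustion list has its points at or right of 0.19 and a median of 0.74, while the type 1 list stays inside the dotted lines, and Gzmf and Gzmc are the far left points.

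The 3 highest ratios belonged to Spp1, Igfbp7 and Lgals7, which are in none of the helper lists. Spp1, which encodes osteopontin, had 344 UMIs in 24 Glut5 KO cells and 2 UMIs in 2 wildtype cells, or 203 and 2.31 CPM. Its log2 ratio was 6.14 [4.60, 9.51]. Phagocytes are a strong source of Spp1, with 764 and 534 CPM in phagocyte-gated cells, and CD8 T cells had 109 and 20.02 CPM. Without mixed cells 314 Glut5 KO UMIs and 0 wildtype UMIs were left, and 1 Glut5 KO cell held 129.

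Igfbp7, an insulin-like growth factor binding protein, had 375 UMIs in 53 Glut5 KO cells and 5 UMIs in 3 wildtype cells, 221 and 5.76 CPM, a log2 ratio of 5.13 [4.03, 6.89]. Phagocyte-gated cells had 4.42 and 2.65 CPM of Igfbp7 and CD8 T cells 9.91 and 7.59 CPM. The ratio was 4.64 without mixed cells, 5.52 in female cells and 4.61 in male cells. Lgals7, a galectin, was at 167 and 11.5 CPM, a log2 ratio of 3.79 [2.95, 4.93], and 3.07 without mixed cells. Areg, of the type 2 list, encodes amphiregulin, a growth factor made by regulatory and type 2 cells. It had 200 UMIs in 30 Glut5 KO cells and 10 UMIs in 3 wildtype cells, a log2 ratio of 3.29 [2.45, 4.44], and 85 UMIs against 0 without mixed cells. Of the 200, 59 came from 1 cell. Foxp3 T cells had more Areg, at 262 CPM (Glut5 KO) and 120 CPM (wildtype), against 118 and 11.5 CPM in conventional CD4 T cells. Their log2 ratio between the libraries was 1.11. Areg and Ccr8 were the 2 of 5 type 2 genes that were higher, with none lower, against 8.40% and 6.31% of all genes. Gem, a small GTPase, was at 140 and 42.7 CPM, and the transcription factor gene Zbtb20 at 148 and 49.6 CPM.

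Not all of the 12 highest were spread over cells. Ccl3, a chemokine of T cells and phagocytes, was at 196 CPM in Glut5 KO and 59.95 CPM in wildtype, with 424 and 456 CPM in phagocyte-gated cells. Its log2 ratio of 1.70 was 0.60 without mixed cells. Def8 had 111 of its 181 Glut5 KO UMIs in 1 cell.

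The lowest ratios rested largely on 1 wildtype cell each for granzymes and Ccl1. Gzmf had no UMI in Glut5 KO and 120 UMIs in 3 wildtype cells, 117 of them in 1 cell, and none without mixed cells. By the floor of 3 counts over the Glut5 KO cells, the wildtype level was at least 78.1-fold higher. Gzmc was at 24.8 CPM in Glut5 KO and 368 CPM in wildtype, where 305 of 319 UMIs came from 1 cell. Without mixed cells its log2 ratio of −3.88 became 2.15. Ccl1 was at 105 and 722 CPM, and its ratio of −2.78 became 1.01 without mixed cells.

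Cd7 and Ccl5 were also lower. Cd7, a surface protein of T and NK cells, was at 36.0 CPM in Glut5 KO and 122 CPM in wildtype, a log2 ratio of −1.76 [−2.24, −1.29], and −1.11 without mixed cells. Ccl5, the chemokine RANTES of effector cells, was at 1061 and 2464 CPM, a log2 ratio of −1.21 [−1.31, −1.12], and −0.71 without mixed cells. Of the 2137 wildtype Ccl5 UMIs, 566 came from 1 cell and 48.8% from the top 3. Phagocyte-gated cells had 1970 and 1244 CPM of Ccl5. Ifitm6, Thbs1, Cfp, Fcgr2b and Csf2rb, genes of myeloid cells, and Klf3 and H1f0 made up the rest of the 12 lowest. Cfp, at 73.2 and 180 CPM, had 5 and 0 UMIs left without mixed cells.

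**Figure D5:**
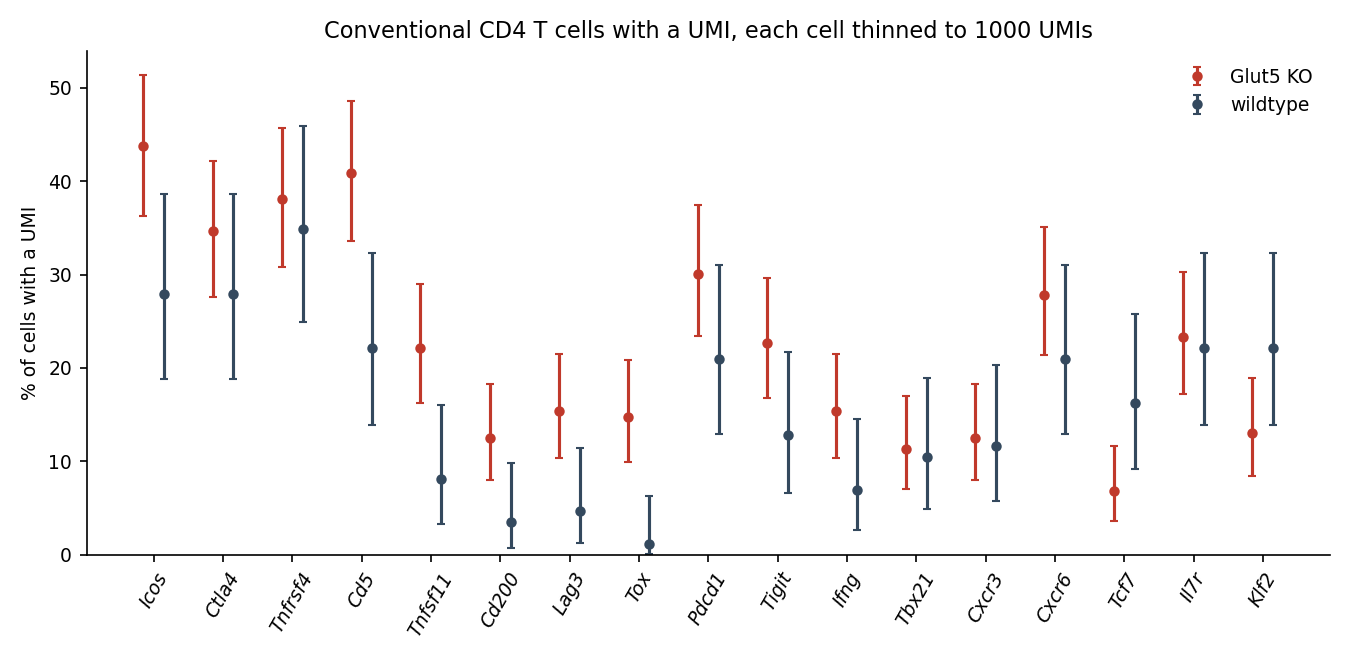
Percent of conventional CD4 T cells with a UMI of each gene after thinning every cell to 1000 UMIs, in 176 Glut5 KO cells (red) and 86 wildtype cells (dark blue), with exact 95% binomial intervals for counting error. Tox is at 14.8% and 1.16%, Tnfsf11 at 22.2% and 8.14% and Cd5 at 40.9% and 22.1%, while Tbx21 is at 11.4% and 10.5% and Tcf7 at 6.82% and 16.3%.

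The shares of thinned cells with a UMI went the same way as the levels for Tox and Cd5. Tox was found in 14.8% [9.88, 20.9] of Glut5 KO and 1.16% [0.0294, 6.31] of wildtype cells, against 0.635% and 0.176% of phagocyte-gated cells. Cd5 was found in 40.9% [33.6, 48.6] and 22.1% [13.9, 32.3], against 0.418% and 0.189% of phagocyte-gated cells. Both pairs of intervals are apart. Lag3 was found in 15.3% and 4.65%, against 7.34% and 6.02% of phagocyte-gated cells. The wildtype share is below that of the phagocyte-gated cells, and no difference is read from this pair of shares. Tcf7 was found in 6.82% [3.57, 11.6] and 16.3% [9.20, 25.8], which overlap. Over 100 helper genes, 30 had a share at least 1.5 times higher in Glut5 KO and 8 at least 1.5 times lower, and 9 and 2 without thinning. The matching counts over all genes are not given, so no difference of the helper genes as a set is read from these counts.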

How the data were processed

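Brain tumour cells selected on CD45 were sequenced from 1 library per genotype with a 10x 5' v2 kit. The deposited files hold raw UMI counts per gene and barcode for 32285 genes, aligned to mm10; Cell Ranger 3.1.0 is named per the submitters' processing notes and 7.0.1 per the file headers. The sources used here do not give intron counting or the annotation.

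Of 23660 barcodes, 23585 passed the limits on genes and mitochondrial UMIs. Counts were summed over the cells of each population and library and divided by their total. Ratios carry conditional exact binomial intervals and shares Clopper-Pearson intervals, at the 95% level. No test was made, since each genotype has 1 library. Phagocyte-gated cells had no Cd3 UMI and at least 100 phagocyte UMIs per 10000. Thinning used seed 0. No doublets were removed; leaving out the top 8% of Scrublet scores was an alternative. Sex was read per cell from Xist and Y-linked UMIs. Members and the 27 gene lists were chosen with earlier results of these data known. Beside list members, the named genes were the 12 highest and 12 lowest of each comparison with at least 100 UMIs, and for genotypes also at least 100 CPM. A few list members are counted but not reported here. The steps were tested on simulated data. Python 3.11.15, numpy 2.4.6, scipy 1.17.1, pandas 2.3.3, scanpy 1.11.5 and matplotlib 3.10.9 were used.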

Additional observations from a re-analysis of the deposited data

Results flagged for a closer look

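Some genes differed between the libraries in opposite directions in conventional CD4 T cells and in another T cell population, each by at least 1.5-fold with an interval that leaves out 0. The values are log2 ratios of Glut5 KO over wildtype, and none of the differences between populations was tested. Against CD8 T cells, Ccl3 was at 1.70 in conventional CD4 and −0.68 in CD8 T cells. Ccr7 was at 0.82 and −0.83, Nrgn at 1.12 and −2.24, and Gzma at −1.06 and 0.92. Against Foxp3 T cells, Ccr7 was at 0.82 in conventional CD4 and −1.34 in Foxp3 T cells. Ccr6 was at 0.77 and −1.47, Egr1 at 1.17 and −1.34, Cenpe at 2.15 and −1.39, and the heat shock gene Hspa1b at 0.61 and −0.70. Lower in Glut5 KO conventional CD4 T cells and higher in Foxp3 T cells were Ccl5, at −1.21 and 0.85, Gzma, at −1.06 and 2.93, Gzmc, at −3.88 and 3.16, and Stat2, at −0.68 and 0.83. The Foxp3 ratios of Gzma and Gzmc rest on few cells. In Foxp3 T cells, Gzma had 38 UMIs in 9 Glut5 KO cells and 1 UMI in 1 wildtype cell. Gzmc had 75 UMIs in 4 Glut5 KO cells and 2 UMIs in 2 wildtype cells.

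Within conventional CD4 T cells, 3 genes had opposite ratios in female and male cells, which was also not tested. Gzma was at 2.43 in female and −2.83 in male cells, Gzmc at −6.10 and 3.002, and Trac at 0.95 and −0.61. These subsets held 38 female and 76 male cells in Glut5 KO, and 12 and 32 in wildtype. Of the Gzmc UMIs in wildtype, 305 of 319 came from 1 cell.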

How the results depend on the processing

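The cause was not tested for any change given here. No paired analysis was possible because each genotype has 1 library. Leaving out mixed cells and leaving out cells with gamma chain constant UMIs were chosen after seeing the data. Of the values for shares and counts of genes, 91 stayed within 1.5 times or within the interval and 32 moved. The log2 ratio of the share among kept cells, 0.995, was 1.40 in female and 1.70 in male cells.

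Between genotypes, the 520 higher genes became 241 without cells holding Ikzf2 or Il2ra, 289 in female cells, 333 in male cells, 930 with equal weight per cell, 4090 with no filter beyond 1 UMI and 245 with at least 100 UMIs. The 391 lower genes became 178 in female cells, 222 without mixed cells, 2667 with no filter and 185 with at least 100 UMIs. Against CD8 T cells, the 103 higher genes became 23 in female cells, 552 with no filter and 67 with at least 100 UMIs. The 63 lower genes became 142 without Ikzf2 or Il2ra cells, 26 in female cells, 107 with equal weight, 205 with no filter, 33 with at least 100 UMIs and 29 with 5 CPM added. Against Foxp3 T cells, the 97 higher genes became 146 with equal weight, 424 with no filter and 59 with at least 100 UMIs, and the 63 lower became 111 without Ikzf2 or Il2ra cells, 99 with equal weight, 1088 with no filter and 33 with at least 100 UMIs. Of the helper gene shares, the 30 higher became 9 without thinning, and the 8 lower became 2 without thinning, 3 at 2000 UMIs and 17 without Ikzf2 or Il2ra cells.

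Among the named genes and list members followed here, counted where at least 50 UMIs were left, directions turned for 30 values; for genotypes these were the named genes and the helper lists. Between genotypes, Ccl1 became 0.0875 under a limit of 50 phagocyte UMIs, 2.18 without Ikzf2 or Il2ra cells, 1.26 in male cells and 1.01 without mixed cells. Actn1 became −0.48 without Ikzf2 or Il2ra cells and −0.0938 without mixed cells, Lta 2.65 without Ikzf2 or Il2ra cells and 0.47 in male cells, Gzmc 0.80 without the top Scrublet scores, and Pdcd1 −0.18 and Itgb7 0.24 in female cells. Over CD8 T cells in wildtype, Penk became −1.26 and Ccl1 −1.81 without Ikzf2 or Il2ra cells, and in female cells Ccr8 −0.58, Setbp1 1.17 and Cd5 −0.23. Over Foxp3 T cells in wildtype, Il17a became −3.76 with a Cd4 UMI required and −1.31 without Ikzf2 or Il2ra cells, Penk −3.86 and Ccl1 −1.60 without Ikzf2 or Il2ra cells, and Ccl1 −0.54 without mixed cells. In female wildtype cells Rgs16 became −3.77, Bmyc 0.67, Penk −1.45, Izumo1r 0.61, Nrgn −1.45, Tnfsf11 −0.91, Tnf −0.22 and Satb1 −0.0049, and in male Glut5 KO cells Gzma became −0.11. The wildtype side has fewer cells, 86 in all and 12 in the female subset.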

Other observations

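Proliferation genes were higher in part in Glut5 KO conventional CD4 T cells, with 6 of 28 counted members of the cell cycle list past 1.5-fold, against 8.40% of all genes, none lower and a median log2 ratio of 0.27. Mki67, a marker of dividing cells, was at 163 CPM in Glut5 KO and 58.8 CPM in wildtype, a ratio of 1.46, and 0.73 without mixed cells. Top2a, the topoisomerase of dividing cells, was at 143 and 101 CPM. Without mixed cells the list had 1 of 26 members higher and 2 lower, against 12.5% and 6.16% of all genes. CD8 T cells had 14 of 28 members higher, against 7.19% of all genes, and none lower.

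Over all conventional CD4 T cells, metabolic genes differed little between the genotypes. None of 14 glycolysis genes passed, with Ldha, which encodes lactate dehydrogenase A, at 1106 CPM in Glut5 KO and 1236 CPM in wildtype, and none of 4 hexose transport genes, with the glucose transporter gene Slc2a1 at 74.4 and 77.2 CPM. Without mixed cells, 3 of 13 glycolysis genes were lower in Glut5 KO and none higher, against 6.16% and 12.5% of all genes. Their median log2 ratio was then −0.37, where it was −0.11 with mixed cells. Of 42 respiratory chain subunits, 1 was lower, Ndufs5, at 79.1 and 157 CPM. Type I interferon response genes were split, with Ifi27l2a higher, at 4822 and 2912 CPM, and Rsad2, at 84.5 and 172 CPM, and Stat2, at 62.0 and 99.2 CPM, lower, of 25 counted. None of 19 MHC class I genes passed.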
